A study of Mus musculus with 7 samples.

Results

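Mest, Copg2 and Klf14, Peg10, Sgce and Ppp1r9a, and Nap1l5 and Herc3 lie in 3 imprinted domains on mouse chromosome 6. Below, a domain means these listed members alone, and other genes nearby count as neighbours, whether imprinted or not. These 8 genes were found by symbol among the 43346 gene rows of the deposited counts, with 1 row for each. Allele counts came from tibial growth plates (the cartilage in which a long bone grows in length) of 7 male C57BL/6J (B6) × CAST/EiJ (CAST) F1 mice aged 21 d. All mice belonged to the same condition, the labels name no treatment, and the mice carry the numbers 1, 2, 3, 4, 5, 7 and 8. The proximal and distal plates were dissected, so the RNA came from whole tissue and not from sorted chondrocytes.

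Imprinted genes are expressed mainly from the copy inherited from the mother or from the father, and the choice is set by DNA methylation laid down in the germ line. In mice, Mest, Peg10, Sgce and Nap1l5 are known as genes expressed from the paternal copy, and Klf14 as a gene expressed from the maternal copy. Copg2, Ppp1r9a and Herc3 lie beside or around these genes, and their imprinting is known to depend on tissue. In an F1 mouse, reads over a strain difference tell the alleles apart. The B6 allele held 99.98% to 99.99% of the counts on mitochondrial genes and 90.2% to 91.6% of those on X-linked genes in the 7 males. Mitochondria, and the X chromosome of a male, come from the mother. A male lacks a second X chromosome, so X-linked counts of the minor allele were largely assigned to a copy that the mice lack. How far such assignment enters the minor-allele counts of the genes below was not tested. No reciprocal cross was measured, so the parent of origin and the strain of an allele cannot be told apart for any gene below.

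Total counts ranged from 14098019 to 37849667 per mouse, with the fewest in mouse 7. The deposited values are estimated counts. Ambiguous reads are shared out between alleles or genes, and the number of reads that separated the alleles is unknown. The 11 chondrocyte markers examined, Col2a1 and Acan among them, together had levels of 61684 to 98222 CPM (counts per 1e+06 total counts). Markers of other tissues were also present, with 35931 to 65258 CPM for 5 osteoblast genes, 7869 to 19283 CPM for 5 erythroid genes and 3215 to 7060 CPM for 5 skeletal muscle genes. Most of the osteoblast sum came from Col1a1, which alone had 33234 to 62971 CPM. The 4 neuron markers summed to 2.03 to 3.23 CPM and the 3 adipocyte markers to 140 to 233 CPM. The part that each tissue had in the counts of the 8 genes was not tested.

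The promoter of Mest is shown first because this gene had the most counts of the 8, nearly all from the CAST allele, while its tail-to-tail neighbour Copg2 had similar counts from both alleles. RefSeq starts (GRCm38.p6) were matched for 5 of the 8 genes. Each sequence is the 250 bases before a start, 5′ to 3′ on the strand of the gene, in the B6 reference. Capitals mark TGCCGC on either strand, the hexamer that the zinc-finger protein ZFP57 is known to bind when methylated at imprinting control regions. The first window ends at the main Mest start (chr6:30737800-30738049, plus strand), the second at an upstream Mest start (chr6:30733256-30733505, plus strand) and the third at the Copg2 start (chr6:30896795-30897044, minus strand).
Mest main start: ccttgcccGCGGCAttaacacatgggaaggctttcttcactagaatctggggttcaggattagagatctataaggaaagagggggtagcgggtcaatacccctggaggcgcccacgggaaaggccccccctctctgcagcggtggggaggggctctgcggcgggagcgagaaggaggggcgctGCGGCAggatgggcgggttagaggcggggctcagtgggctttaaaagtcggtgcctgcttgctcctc
Mest upstream start: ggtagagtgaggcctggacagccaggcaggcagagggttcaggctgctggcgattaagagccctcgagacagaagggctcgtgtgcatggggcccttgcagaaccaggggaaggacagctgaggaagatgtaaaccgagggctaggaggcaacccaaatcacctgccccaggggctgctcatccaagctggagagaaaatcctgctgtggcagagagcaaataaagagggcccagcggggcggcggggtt
Copg2 start: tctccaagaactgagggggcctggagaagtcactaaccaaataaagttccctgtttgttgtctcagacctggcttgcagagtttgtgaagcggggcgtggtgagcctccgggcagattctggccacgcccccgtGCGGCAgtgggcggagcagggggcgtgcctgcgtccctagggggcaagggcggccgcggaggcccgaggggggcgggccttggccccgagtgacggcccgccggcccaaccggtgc

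The hexamer occurred 2 times before the main Mest start, 0 times before the upstream start and 1 time before the Copg2 start. Of all 32851 RefSeq windows of this length, 8.68% held it at least once. CpG dinucleotides numbered 14, 7 and 19 in the same 3 windows, against a median of 6 over all windows. In the window before the Nap1l5 start the hexamer occurred 1 time, with 10 CpG dinucleotides. It occurred 0 times in both Ppp1r9a windows, with 35 and 8 CpG dinucleotides, and 0 times in the Herc3 window, with 4. These matches describe the B6 sequence alone, and no methylation was measured.

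Allele counts were compared between the 7 CAST and the 7 B6 columns with edgeR's likelihood-ratio test, and a gene was called at a false discovery rate (FDR, adjusted over all 21805 tested genes) under 0.20. Log2 fold changes are CAST over B6. Of the 8 genes, 7 were tested, and Nap1l5 was not because it had no count in mouse 7. Calls were made for 6 of the 7, with CAST higher for 4 (Mest, Peg10, Sgce and Herc3) and B6 higher for 2 (Klf14 and Ppp1r9a). Among all tested genes 32.6% were called, 15.4% with CAST higher and 17.2% with B6 higher. The same allele was higher in all 7 mice for 5 of the 7 tested members, against 23.1% of all tested genes. The median size of the log2 fold change, regardless of sign, was 3.86 over the 7 members and 0.22 over all tested genes.

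**Figure D1:**
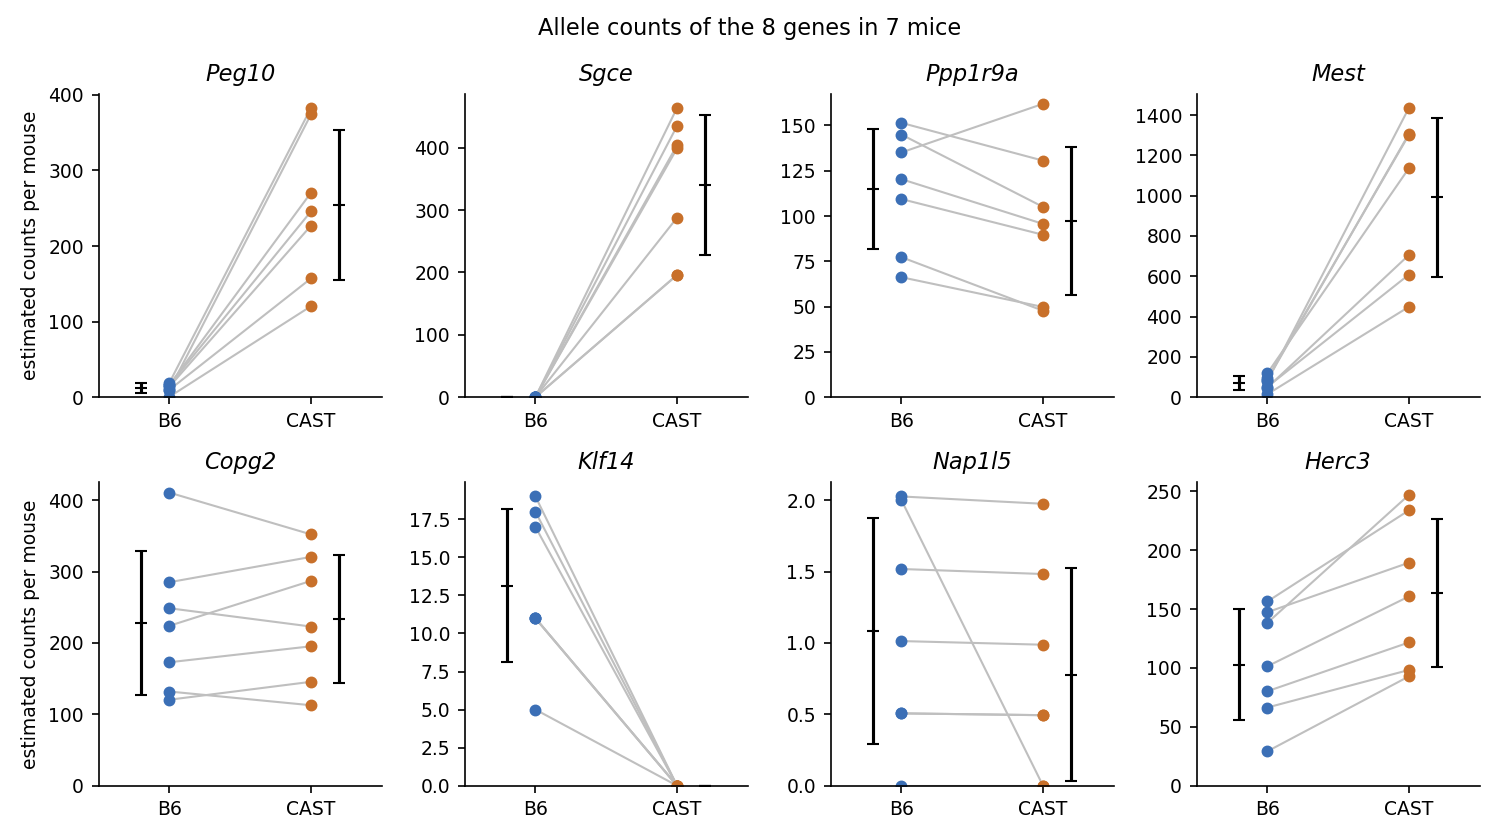
Estimated counts from the B6 and the CAST allele of each of the 8 genes (y axis, counts per mouse, each panel with its own scale). Each dot is an allele in a mouse, a grey line joins both alleles of a mouse, and black bars give the mean ± SD over 7 mice. CAST counts exceeded B6 counts in every mouse for Peg10, Sgce, Mest and Herc3, and B6 counts exceeded CAST counts in every mouse for Klf14.

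Mest (chromosome 6, 30723547 to 30748465, plus strand, GRCm38/mm10) encodes a protein of the alpha/beta hydrolase fold family and is named for its expression in mesoderm. The CAST allele had 1307, 1302, 1436, 608, 1136, 449 and 706 counts in mice 1, 2, 3, 4, 5, 7 and 8. In the same order, the B6 allele had 86.4, 93.5, 80.2, 51.6, 119, 14.8 and 47.8 counts. The lowest CAST value was thus well above the highest B6 value. The CAST share of counts was 93.6% ± 1.96 (SD, n = 7), lowest in mouse 5 at 90.5% and highest in mouse 7 at 96.8%. The log2 fold change of Mest was 3.86 (FDR 3.57e-100, edgeR). Within mice the log2 ratio, with 0.5 added to each count, averaged 3.91 ± 0.513 (SD, n = 7; two-sided exact permutation test by sign flips, p = 0.0156, the lowest that 7 mice can give). The B6 share of Mest was 3.18% to 9.46%, so the estimate gave some counts to B6 in every mouse. Whether these counts came from B6 transcripts was not tested.

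Copg2 (30747554 to 30896794, minus strand) encodes a gamma subunit of the COPI coat, which carries cargo from the Golgi back to the endoplasmic reticulum. Its last exon runs into the end of Mest from the opposite strand, and the annotated genes overlap over 912 bases (30747554 to 30748465). CAST counts of Copg2 were 321, 223, 287, 146, 352, 113 and 195 in mice 1, 2, 3, 4, 5, 7 and 8. B6 counts were 285, 249, 224, 120, 411, 132 and 173 in the same order. The groups overlapped, with CAST higher in 4 mice and B6 higher in 3. The CAST share averaged 50.9% ± 4.28 (SD, n = 7) and ranged from 46.1% to 56.2%. The log2 fold change of Copg2 was 0.07 (FDR 0.822, edgeR), and the sign-flip test gave p = 0.594 (exact, n = 7). Any allele difference in Copg2 was within the spread between mice.

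Copg2 had a lower CAST share than Mest in all 7 mice, with differences from -50.7 to -37.5 percentage points. They averaged -42.7 ± 4.67 points (SD, n = 7; exact sign-flip permutation test, p = 0.0156, and 0.0208 after Benjamini-Hochberg adjustment over 4 pairs of members). The totals of Mest and of Copg2 were not whole numbers in any mouse, but their sum was whole in all 7 mice, to a tolerance of 1e-04, and no other gene completed the Mest totals in this way. Of 4148 distinct stretches of 75 bases, the read length, in annotated Mest transcripts, 838 (20.2%) also occurred in Copg2 transcripts in the opposite orientation. They made up 15.6% of the 5384 stretches of Copg2. The libraries were stranded, but whether the alignment used the strand is not given in the sources used here. Some reads were divided between the 2 genes, and the part of such reads in the B6 counts of Mest and the CAST counts of Copg2 was not tested. With both genes summed, the CAST share was 80.4% ± 3.42 (SD, n = 7).

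Klf14 (30956023 to 30959078, minus strand) encodes a zinc-finger transcription factor of the Krüppel-like family and lies on the far side of Copg2 from Mest. It was sparsely counted, with 11, 19, 17, 11, 18, 5 and 11 counts in mice 1, 2, 3, 4, 5, 7 and 8. All of these counts were assigned to the B6 allele, and the CAST allele summed to 0.00209 counts over the 7 mice. Klf14 is the only member with nearly all counts on B6. With a floor of 3 counts over the 7 mice for the CAST allele, the 92 B6 counts were at least 30.7-fold higher. A count of 0 among 92 allows a CAST share of up to 3.26%, which covers counting error only and takes every count as one that tells the alleles apart. The call for Klf14 had an FDR of 1.05e-22 in edgeR's likelihood-ratio test (exact p = 0.0156 by sign flips). In edgeR's quasi-likelihood test with mice as replicate blocks, the FDR of Klf14 was 0.0989, still under 0.20.

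**Figure D2:**
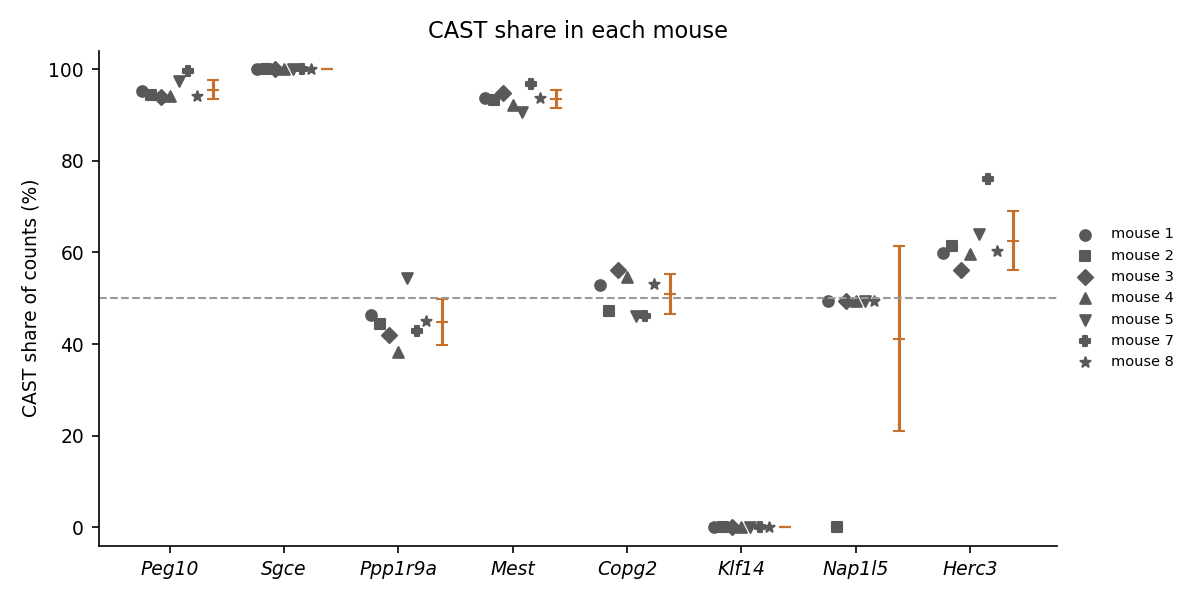
CAST share of counts (y axis, percent) of the 8 genes, with a symbol for each mouse and the mean ± SD over mice in orange. The dashed line marks 50%. Peg10, Sgce and Mest lie above 90% in every mouse, Klf14 lies at 0%, and Ppp1r9a, Copg2 and Herc3 lie between 38.2% and 76.1%. Nap1l5 has 6 mice with a count, and its 5 values near 49% come from counts that the estimate divided almost evenly.

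Peg10 (4747306 to 4760517, plus strand) derives from an ancient retrotransposon, encodes gag-like and pol-like proteins, and is known for its need in placental development. Counts from the CAST allele were 383, 271, 246, 157, 374, 120 and 227 in mice 1, 2, 3, 4, 5, 7 and 8. B6 counts were 19.2, 16.3, 16.0, 9.81, 9.63, 0.574 and 13.95 in that order. No B6 value came near the lowest CAST value. The CAST share of Peg10 averaged 95.5% ± 2.15 (SD, n = 7) and was lowest in mouse 3 at 93.9% and highest in mouse 7 at 99.5%. Its log2 fold change was 4.35 (FDR 4.8e-137, edgeR), and the ratio favoured CAST in 7 of 7 mice (exact sign-flip permutation test, p = 0.0156).

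Sgce (4674350 to 4747207, minus strand) encodes epsilon-sarcoglycan, a membrane glycoprotein related to the dystrophin-associated complex, and mutations in its human counterpart cause myoclonus-dystonia. Its start lies 99 bases from that of Peg10, and the genes are transcribed away from each other. Sgce had 435, 399, 404, 196, 464, 196 and 288 CAST counts in mice 1, 2, 3, 4, 5, 7 and 8. The B6 allele had at most 0.111 counts in a mouse (mouse 8) and 0.159 counts over all 7. The lowest CAST share of Sgce was 99.96%. Taking a floor of 3 counts over the 7 mice for B6, the CAST counts of Sgce were at least 794-fold higher. Under the same assumption as for Klf14, the B6 share of the 2382 counts could be up to 0.126%. The FDR of Sgce was 7.82e-286 in edgeR's likelihood-ratio test, and all 7 mice favoured CAST (exact sign-flip permutation test, p = 0.0156). In edgeR's quasi-likelihood test with mice as replicate blocks, the FDR of Sgce was 0.0364.

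The CAST share of Sgce exceeded that of Peg10 in every mouse. The gap was 4.78, 5.69, 6.12, 5.87, 2.51, 0.474 and 5.75 percentage points in mice 1, 2, 3, 4, 5, 7 and 8. It averaged 4.46 ± 2.15 points (SD, n = 7; exact sign-flip permutation test, p = 0.0156, adjusted p = 0.0208 over 4 pairs). With Sgce at 99.96% or more in every mouse, almost any B6 count of Peg10 gives a positive gap. The test thus shows only that Peg10 had some estimated B6 counts in each mouse. The 5 mice other than 5 and 7 lay close together, and the gap of mouse 7 was the smallest. Totals of Peg10 and of Sgce were whole numbers in every mouse, and none of the 6626 and 11037 distinct stretches of 75 bases in their annotated transcripts occurred in another gene. Reads divided between the alleles of a gene leave its total whole, and their part in the gap was not tested.

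Ppp1r9a (4902917 to 5165661, plus strand) encodes neurabin-1, an actin-binding protein that targets protein phosphatase 1. B6 counts were 151, 120, 145, 77.3, 135, 66.2 and 109 in mice 1, 2, 3, 4, 5, 7 and 8. CAST counts were 131, 95.7, 105, 47.7, 162, 49.8 and 89.6 in the same order. B6 was higher in all mice but mouse 5, and the values of both alleles overlapped. The CAST share of Ppp1r9a was 44.8% ± 5.04 (SD, n = 7), from 38.2% to 54.5%. Its log2 fold change of -0.25 was just past the threshold (FDR 0.171, edgeR), and the sign-flip test gave p = 0.0469 (exact, n = 7). The total of Ppp1r9a was not whole in 5 mice, while 0 of its 15025 distinct stretches of 75 bases occurred in another annotated gene. The call was lost without TMM scaling (FDR 0.284) and without any of mice 1, 2, 3, 4, 7 and 8 (FDR 0.221 to 0.326). Compared with Peg10, the CAST share of Ppp1r9a was lower in all 7 mice, with differences from -56.6 to -43.0 points. They averaged -50.8 ± 4.64 points (SD, n = 7; exact sign-flip permutation test, p = 0.0156, adjusted p = 0.0208).

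Nap1l5 (58905233 to 58907076, minus strand) belongs to the nucleosome assembly protein family, lies within an intron of Herc3, and is best known from brain and neuroendocrine tissue. It had 1, 2, 4, 1, 2, 0 and 3 counts in mice 1, 2, 3, 4, 5, 7 and 8. In 5 of the 6 mice with counts, 11 of the 13 counts in all, the estimate divided the counts at nearly the same ratio, 49.3% to 49.4% to CAST. In mice 1 and 4 this was a single count, divided into 0.493 or 0.494 for CAST and 0.507 or 0.506 for B6, so it did not tell the alleles apart. These shares are therefore no measurement of allele balance. The 2 counts of mouse 2 were both assigned to B6. With so few counts that separate the alleles, no share, interval or direction is given for Nap1l5.

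Herc3 (58831465 to 58920398, plus strand) encodes a HECT-type ubiquitin ligase and spans Nap1l5. CAST counts were 234, 161, 189, 98.2, 247, 92.8 and 122 in mice 1, 2, 3, 4, 5, 7 and 8. B6 counts were 156, 101, 147, 66.4, 138, 29.2 and 80.2 in that order. CAST was higher in all 7 mice, although the ranges over mice overlapped. The CAST share averaged 62.5% ± 6.42 (SD, n = 7). It lay between 56.2% and 64.1% in 6 mice and at 76.1% in mouse 7. Herc3 had a log2 fold change of 0.72 (FDR 2.38e-05, edgeR; exact sign-flip p = 0.0156). Without mouse 7 the log2 fold change was 0.62. Its total was not whole in 6 of 7 mice, although just 1 of its 9314 distinct stretches of 75 bases (0.0107%) occurred in another annotated gene, Gm37985. The difference in CAST share between Herc3 and Nap1l5 is not interpreted, for lack of Nap1l5 counts that separate the alleles.

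At a minimum of 10 counts in each mouse, 14526 autosomal genes remained, of which 0.489% had a CAST share over 90% in every mouse and 0.509% had one under 10%. Of the 6 members that met this count minimum, 3 (Mest, Peg10 and Sgce) were over 90% in every mouse and 0 were under 10%. Klf14 was under 10% in every mouse but had only 5 counts in mouse 7.

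**Figure D3:**
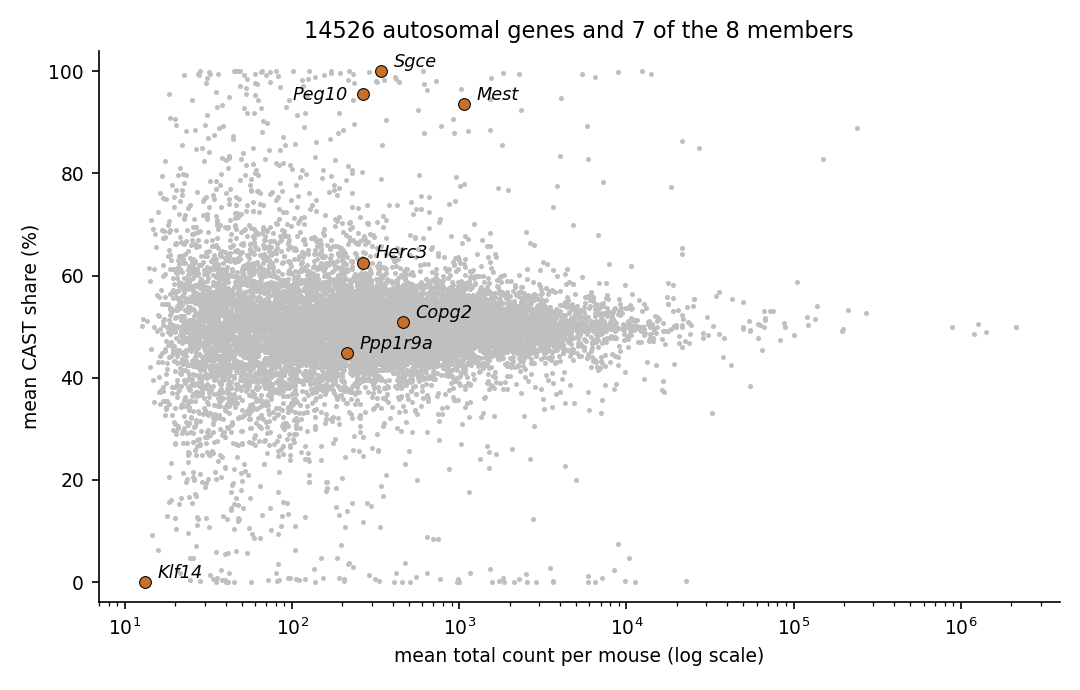
Mean CAST share (y axis, percent) against the mean total count per mouse (x axis, log scale) for the 14526 autosomal genes at the count minimum of 10 (grey) and for 7 of the 8 members (orange). Mest, Peg10 and Sgce sit near the upper edge at 93.6%, 95.5% and 99.99%, and Klf14 sits at 0%.

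Likeness to Mest, Peg10 and Sgce was measured as the mean absolute difference in CAST share over the 7 mice, across 13323 other protein-coding and lincRNA genes on autosomes at the same count minimum. The 3 genes nearest to Mest were Gm38393 on chromosome 7 (2.02 percentage points), Lars2, a mitochondrial leucyl-tRNA synthetase gene (2.12 points), and Peg10 itself (2.20 points). Nearest to Peg10 were Gm7292 (1.69 points), the mast cell tryptase gene Tpsab1 (2.02 points) and Gm14226 (2.19 points). Nearest to Sgce were AK157302 (0.00766 points), Gm10076 (0.0292 points) and Gm6410 (0.0374 points). The CAST shares of the last 3 genes averaged 99.97% or more. Summed over the 7 mice, the totals of these nearest genes were not whole numbers, except for Peg10 and Tpsab1. The part of reads divided with other genes in their CAST shares was not tested.

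The total level of each gene, both alleles summed, was expressed as CPM per kilobase of merged exons so that genes could be compared. Mest had the highest level, 10.02 ± 2.40 CPM per kb (SD, n = 7). Its values were 11.5, 11.9 and 13.9 in mice 1, 2 and 3 and 7.96, 8.41, 8.33 and 8.06 in mice 4, 5, 7 and 8. Copg2 followed at 3.34 ± 0.519, with a range of 2.47 to 3.94 that stayed below every Mest value. Peg10 (1.48 ± 0.248), Sgce (1.21 ± 0.171) and Herc3 (1.08 ± 0.212) had levels whose ranges overlapped. Ppp1r9a was lower at 0.55 ± 0.0774 CPM per kb, and its highest mouse (0.634) was below the lowest mouse of Herc3 (0.858). Klf14 (0.16 ± 0.0366) and Nap1l5 (0.0366 ± 0.0279) had the lowest levels. In bulk tissue, fewer cells of a type and less RNA per cell cannot be told apart.

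**Figure D4:**
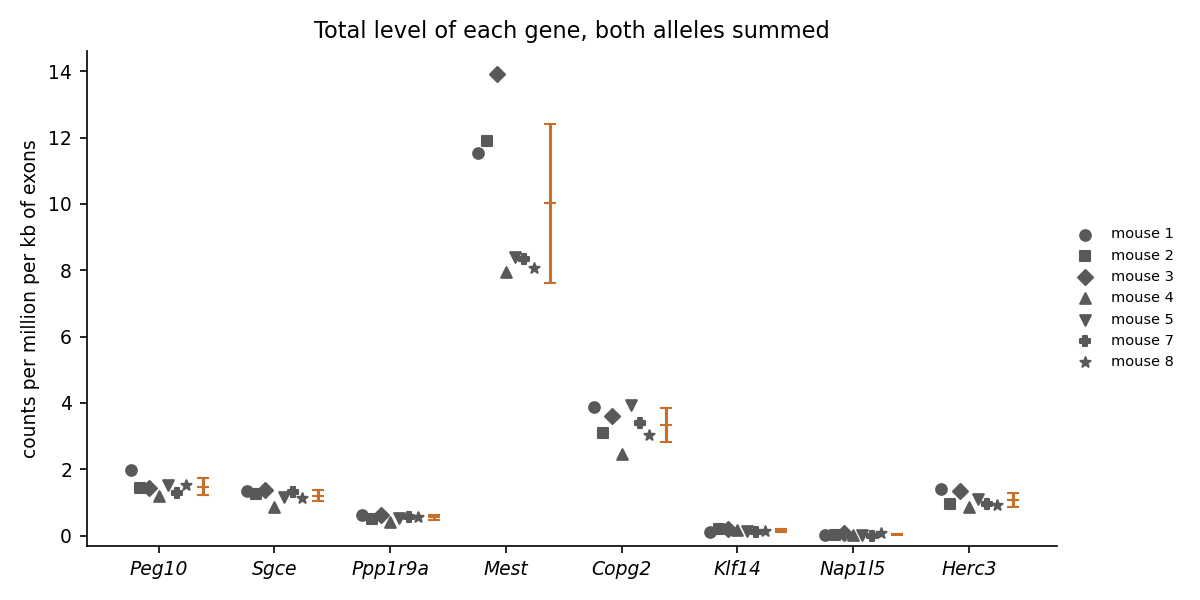
Total level of each gene (y axis, CPM per kilobase of merged exons), with a symbol for each mouse and the mean ± SD over 7 mice in orange. Mest lies between 7.96 and 13.9, above all other members, and Klf14 and Nap1l5 lie near 0.

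To see how far the allele differences reached, every gene annotated within 1 Mb of a domain was examined. Besides the members, 51 neighbours were tested and 16 were called (31.4%, with 32.6% among all tested genes), 4 with CAST higher and 12 with B6 higher. The same allele was higher in all 7 mice for 10 of the 16. Some tested neighbours could not be called. Gmfg-ps, Gm23049 and Gm6117, named here after their values were seen, had at most 0.000312 counts in a mouse, which round to 0. Rps15-ps2, also named after its values were seen, had its counts divided evenly between the alleles in every mouse. The median size of the log2 fold change was 0.16 over the 51 neighbours, against 0.22 over all tested genes.

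Around Peg10, 6 of 16 tested neighbours were called, 2 with CAST higher and 4 with B6 higher. A run of 3 adjacent genes beyond Ppp1r9a had more B6 counts in every mouse. Pon3, a paraoxonase gene that starts 509 kb from the Peg10 start, had 31.7 ± 19.2 CAST and 130 ± 45.7 B6 counts (SD, n = 7). Its log2 fold change was -2.07 (FDR 2.5e-24, edgeR). The B6 share of Pon3 was 81.7%. Pon2, a paraoxonase gene 551 kb away, had 37.5 ± 19.03 CAST and 299 ± 106 B6 counts (SD, n = 7). Its log2 fold change was -2.98 (FDR 1.77e-99, edgeR) and its B6 share 89.3%, with a total that was not whole in 6 mice. Asb4, which encodes a substrate adaptor of a ubiquitin ligase, starts 636 kb away and had 17.6 ± 8.12 CAST and 42.5 ± 16.6 B6 counts (SD, n = 7; log2 fold change -1.27, FDR 5.91e-08, edgeR). For each of the 3 genes, 7 of 7 mice had more B6 counts (exact sign-flip permutation test, p = 0.0156). Pdk4, the next tested gene beyond Asb4, had a CAST share of 51.8% and was not called (FDR 0.842).

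On the other side of Sgce, Casd1, a sialic acid O-acetyltransferase gene, had a CAST share of 51.7% ± 4.70 (SD, n = 7) and was not called (FDR 0.629, edgeR). Col1a2, which encodes a chain of type I collagen, averaged 583546 CAST and 616719 B6 counts. All 7 mice had more B6 counts of Col1a2, at a CAST share of 48.6% ± 0.227 (SD, n = 7; exact sign-flip permutation test, p = 0.0156). Col1a2 was not called (FDR 0.917) in the edgeR fit, which does not pair the alleles of a mouse. Farther out, Calcr, the calcitonin receptor gene of osteoclasts, had a CAST share of 69.1% ± 8.52 (SD, n = 7; log2 fold change 1.13, FDR 0.000724, edgeR). Tfpi2, a protease inhibitor gene, had a CAST share of 38.2% ± 6.21 (log2 fold change -0.60, FDR 0.0779). In the tissue sampled, osteoclast markers were present at 4133 to 6005 CPM for 4 genes, and their part in the Calcr counts was not tested. Gng11, Bet1, Dync1i1 and Slc25a13 had mean CAST shares from 46.4% to 51.9% and were not called. The remaining called gene, Gngt1, named here after its values were seen, averaged only 0.429 counts per mouse.

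Around Mest, 10 of 29 tested neighbours were called, 2 with CAST higher and 8 with B6 higher. Distances around Mest are from its outermost annotated start (30723547), which lies upstream of both Mest starts shown above. Cep41, a centrosomal gene whose start lies at -29.8 kb, had a CAST share of 46.1% ± 7.98 (SD, n = 7) and was not called (FDR 0.514, edgeR). Cpa4, a carboxypeptidase gene of the cluster beside it, had 5.16 ± 3.07 CAST and 1.27 ± 1.74 B6 counts (SD, n = 7; log2 fold change 2.18, FDR 0.00137, edgeR). CAST was higher for Cpa4 in all 7 mice, although its mean was only 6.43 counts. Its lowest CAST share was 50.1%, where the estimate divided the counts almost evenly and gives no direction. The pseudogene Gm13835 had a B6 share of 98.3% and a total that was not whole in any mouse. Gm13848, a lincRNA of 18.3 counts on average, had a CAST share of 20.5% ± 16.3 (log2 fold change -1.86, FDR 3.66e-06). Podxl, the podocalyxin gene, and Smo, the Hedgehog signal transducer, were called with small differences, at CAST shares of 44.6% ± 1.48 (FDR 0.0926) and 46.1% ± 2.72 (FDR 0.167). B6 was higher in all 7 mice for both. Mkln1 had a CAST share of 48.4% and was not called.

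Around Nap1l5 and Herc3, 0 of 6 tested neighbours were called at an FDR under 0.20 in edgeR. An unadjusted p under 0.05 was given for 0 of them, both by edgeR and by DESeq2, which also called 0. CAST shares averaged 47.5% for Abcg2, 52.0% for Fam13a, 55.0% for Tigd2 and 47.7% for Gprin3. The CAST share of Herc3, 62.5%, was above each of these means, while the ranges over mice of Fam13a (40.5% to 74.4%) and Tigd2 (33.5% to 74.9%) took in 6 of the 7 values of Herc3.

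**Figure D5:**
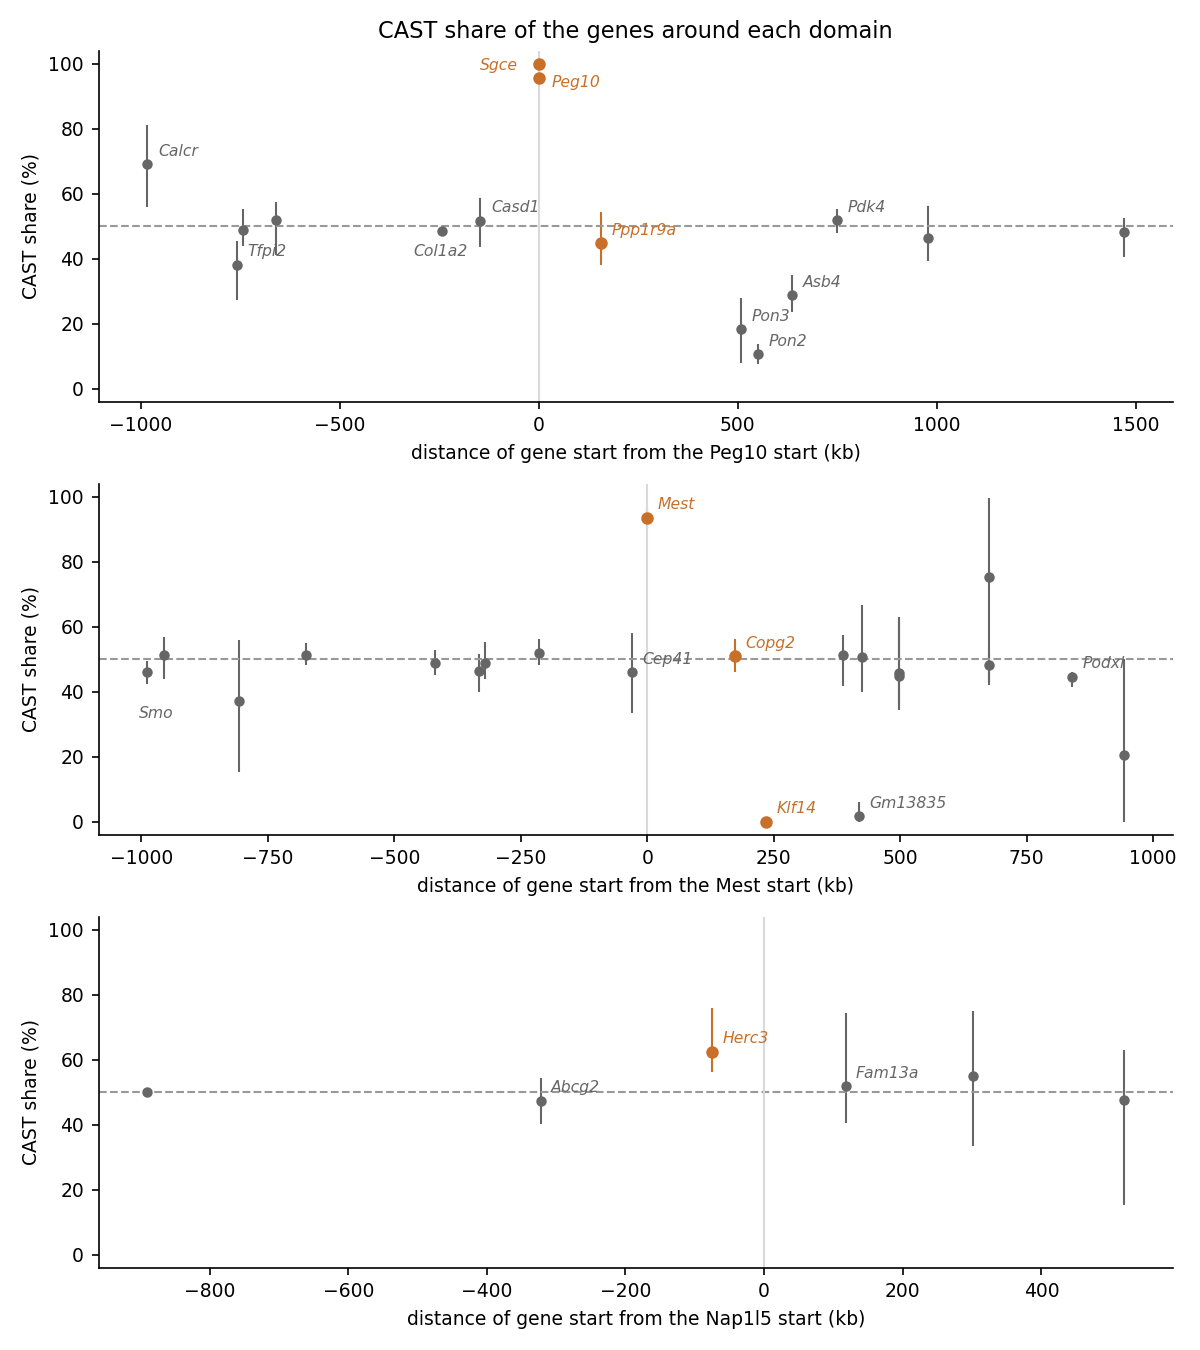
CAST share (y axis, percent) of genes around each domain against the distance of their start from the outermost annotated start of Peg10, Mest or Nap1l5 (x axis, kb). Dots are means and bars the range over 7 mice, for tested genes at the count minimum of 10 and for Klf14, with members in orange. Sgce, Peg10 and Mest stand at the top, Klf14, Gm13835, Pon2 and Pon3 stand below 20%, and most other genes lie near the dashed line at 50%.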

How the data were processed

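RNA was measured in tibial growth plates of 7 male F1 mice, analysed as 7 replicates of 1 group, as the sample labels give them. The authors aligned reads with Bowtie to a joint B6 (mm10) and CAST transcriptome, allowing at most 3 mismatches, and used EMASE to make the deposited estimated counts per gene and allele. No normalization had been applied, and values can hold fractions. The libraries were prepared with a stranded kit, and whether strand was used in alignment or counting is not given in the sources used here. Names and positions come from GENCODE release M21 (GRCm38), which holds 42462 of 43346 gene identifiers.

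Genes with at least 1 allele above 0 in every mouse were tested, and such values can be far below 1. Counts were rounded, scaled by TMM and compared with estimateDisp, glmFit and glmLRT of edgeR 4.0.16 (R 4.3.3), with Benjamini-Hochberg adjustment over all tested genes. The exact sign-flip test of log2 ratios (pseudocount 0.5) used Python 3.11.15. The fit was also run on simulated counts, with the alleles of a mouse drawn independently. It recovered 95% of genes changed by a log2 fold change of 1 in size and 100% of those changed by 3. Of its calls, 19.4% were false. The simulation changed no genes of few counts and divided no reads, so it does not cover genes such as Klf14. Alternatives included DESeq2 1.42.0, edgeR's quasi-likelihood test, other filters and library sizes, and the mouse as a replicate block. The pairing comes from the animal, since both alleles of a mouse share a library. Deviations of its alleles from their means correlated at 0.107 to 0.388 within a mouse (mean 0.246). Between different mice the correlation was -0.311 to 0.265 (mean -0.0412), so the ranges overlapped. All pairs of mice differed beyond sampling noise (chi-square per degree of freedom at least 17.99).

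Members and lists were chosen with earlier results of these data known. All 8 members are named. Neighbours are named if called with the same direction in all 7 mice, or if on a list of known neighbours, of which 1 tested gene is not reported here. For Mest, Peg10 and Sgce the 3 genes nearest in CAST share are named.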

Additional observations from a re-analysis of the deposited data

Results flagged for a closer look

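Of 18 sets of values over the mice, 3 had a mouse well apart from the rest, and chance alone gives about 0.9. For the log2 ratio of Herc3, mouse 7 stood at 1.65, from 92.8 CAST and 29.2 B6 counts, and the other mice lay between 0.36 and 0.83. For the log2 ratio of Klf14, mouse 7 stood at -3.46, from 5 B6 counts, and the other mice lay between -5.29 and -4.52. With all counts on B6, this ratio follows from the number of counts and the 0.5 added to each allele. For the total level of Peg10, mouse 1 stood at 13.1 CPM and the other mice lay between 7.94 and 10.2 CPM. Mouse 7 had the fewest total counts, and the part of depth in the Herc3 value was not tested.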

How the results depend on the processing

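Across the alternatives, Mest, Peg10, Sgce, Klf14 and Herc3 stayed called with the same direction and Copg2 stayed uncalled, wherever a gene was tested. Log2 fold changes ran from 3.79 to 3.97 for Mest, 4.20 to 4.42 for Peg10 and 0.62 to 0.78 for Herc3. Ppp1r9a fell short of the threshold without TMM (-0.25), with 1 library size per mouse (-0.27) and at an FDR under 0.05 (-0.25). With single mice left out it lay between -0.35 and -0.21, and the cause was not tested. With the mouse as a replicate block, 9315 of 21805 genes were called in place of 7111, and the same 6 members. That block ended no call of a member. Of the neighbours, 9 were called at an FDR under 0.05 and 8 within 500 kb, where fewer genes were tested (30). The comparison of Herc3 with Nap1l5, the fourth of the 4 pairs adjusted together, a gap of 19.1 points (10.7 without mouse 2, up to 21.6 with other mice left out), is void, because 11 of the 13 Nap1l5 counts were divided almost evenly and do not measure its alleles. With Rn7s1, Rn7s2 and Rn7sk removed from the totals, levels of 7 of the 8 genes moved by over 1 SD, Mest from 39.5 to 49.2 CPM. Depth limits Klf14 and Nap1l5 most, and the number of reads that tell the alleles apart limits every share.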
